A study of Mus musculus with 6 samples.

Results

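The interferon regulatory factor (Irf) genes are described here in macrophages of tumor-bearing mice treated with nanoparticles that carry Irf5 mRNA. Every gene of the deposited table whose symbol is Irf followed by a digit was taken, which gave 7 of the 754 genes: Irf1, Irf2, Irf3, Irf4, Irf5, Irf7 and Irf8. Irf9 has no row in the table. The samples were peritoneal cells of adult C57BL/6J mice injected with ID8 cells, a mouse ovarian cancer line, and sorted as F4/80+ CD11b+ macrophages. In the PBS group, 3 samples came from mice that had received 2 intraperitoneal (i.p.) injections of PBS, on days 1 and 5. In the IRF5-NP group, 3 samples came from mice that had received nanoparticles with 30 µg of mouse IRF5 mRNA on the same days, and both groups were treated 7 weeks after tumor inoculation. The methods of the study give a larger dose, a shorter time with tumor, and particles that also carry mRNA for the kinase IKKβ, whereas the labels name IRF5 mRNA alone. No group received particles with a control mRNA, so that the particle and its cargo cannot be told apart. The labels do not say whether each sample is 1 mouse or a pool, and p-values measure the spread between these samples.

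Interferon regulatory factors are transcription factors that bind DNA through a shared N-terminal domain and read elements built around GAAA repeats. Irf3, Irf5 and Irf7 lie latent in the cytoplasm until kinases below Toll-like receptors (TLRs) and nucleic acid sensors phosphorylate them. Irf3 and Irf7 drive type I interferon genes, whereas Irf5 drives inflammatory cytokine genes in macrophages and is linked to the M1 state. Irf1 is induced by interferon-γ and Irf2 opposes it at shared sites, Irf8 directs the monocyte and dendritic cell lineages, and Irf4 is linked to alternative (M2) activation. Phosphorylation and nuclear entry leave no trace in RNA counts.

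To show what lies upstream of the genes compared, promoter windows were read from RefSeq (mouse build GRCm38.p6, 250 bases before to 50 bases after each annotated start). They cover 9 starts of the 7 genes. Each was searched on both strands for GAAANNGAA, the core of the interferon-stimulated response element, and for TTCNNNGAA, the core of the gamma-activated site (GAS). The first was found in 1 of the 7 genes (Irf2) and in 8.56% of all 32851 promoter windows of the same length. The second was found in 3 of the 7 (Irf1, Irf2 and Irf8) and in 8.30% of all windows. Among the 707 windows of 578 genes of the table, the shares were 11.9% and 9.48%. The member figures count genes with a match in any window, and Irf1 and Irf8 have more than 1 window. The shares count windows, so the units differ. The windows printed are those of the delivered gene, of the member with the largest difference between groups, and of the 2 members whose only matches were to the GAS core, shown in capitals:
Irf5 chr6:29526375-29526674 (+ strand): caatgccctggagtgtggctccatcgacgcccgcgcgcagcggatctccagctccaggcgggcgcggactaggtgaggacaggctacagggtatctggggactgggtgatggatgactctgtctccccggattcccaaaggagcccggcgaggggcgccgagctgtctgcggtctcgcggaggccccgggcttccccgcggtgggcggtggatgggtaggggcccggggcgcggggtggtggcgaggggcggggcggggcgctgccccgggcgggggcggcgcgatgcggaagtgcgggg
Irf7 chr7:141266375-141266674 (- strand): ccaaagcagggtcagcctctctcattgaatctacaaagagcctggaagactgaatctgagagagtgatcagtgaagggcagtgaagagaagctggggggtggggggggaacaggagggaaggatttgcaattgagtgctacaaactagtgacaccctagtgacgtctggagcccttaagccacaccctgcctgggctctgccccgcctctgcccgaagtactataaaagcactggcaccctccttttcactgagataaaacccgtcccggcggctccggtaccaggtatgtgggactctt
Irf1 chr11:53769764-53770063 (+ strand): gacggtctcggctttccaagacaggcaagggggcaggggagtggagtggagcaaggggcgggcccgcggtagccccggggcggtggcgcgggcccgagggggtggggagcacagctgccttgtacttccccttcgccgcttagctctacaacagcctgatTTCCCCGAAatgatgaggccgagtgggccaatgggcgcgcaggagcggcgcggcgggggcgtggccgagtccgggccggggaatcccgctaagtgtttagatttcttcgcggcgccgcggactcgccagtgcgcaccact
Irf8 chr8:120736108-120736407 (+ strand): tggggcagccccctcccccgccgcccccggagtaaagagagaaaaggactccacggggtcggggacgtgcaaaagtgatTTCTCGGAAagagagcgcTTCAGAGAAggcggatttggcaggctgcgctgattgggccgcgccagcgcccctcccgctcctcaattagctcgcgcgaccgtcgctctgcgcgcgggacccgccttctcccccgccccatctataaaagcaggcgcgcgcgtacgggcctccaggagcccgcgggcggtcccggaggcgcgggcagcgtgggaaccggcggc
The match in Irf1 begins 90 bases before the start (position -90), and those in Irf8 begin at positions -171 and -153. Neither core has a full match in the windows of Irf5 and Irf7 on either strand, which says nothing about the factors that act there.

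Expression was measured with the NanoString nCounter, which counts color-coded probes hybridized to each transcript without amplification. Values are normalized counts, and each probe has its own efficiency, so that levels were compared between samples and never between genes. The samples held between 683472 and 1830318 counts in all. The background, set at the mean plus 2 SD of 8 negative control probes, was 25.6 to 37.8 normalized counts in 5 samples and 79.4 in IRF5-NP replicate 3, which had the fewest counts. A chi-square comparison of gene counts found no difference beyond sampling noise for PBS replicates 2 and 3 (1.07 per degree of freedom, p = 0.0782), whereas every other pair of samples differed. They were averaged and counted as 1 sample, so that each test rests on 5 samples, 2 with PBS and 3 with IRF5-NPs. Differences are log2 fold changes of IRF5-NP over PBS with their standard error (SE), from limma, and adjusted p-values (Benjamini-Hochberg) run over the 754 genes together, with 0.05 as the threshold. All 7 macrophage markers listed were measured and none was at 0, and their summed level ranged from 65269 to 68042 in the PBS samples and from 50391 to 106290 in the IRF5-NP samples. Of these 7, Mertk, a receptor for dying cells, fell (log2 difference -1.23, SE 0.24, adjusted p = 0.0218), a call lost without PBS replicate 1 (-0.89, adjusted p = 0.0741) or any single IRF5-NP sample (adjusted p up to 0.121). The other 6 did not pass. Adgre1 (log2 difference 1.15, SE 0.48, limma adjusted p = 0.181) and Itgam (0.61, SE 0.44, adjusted p = 0.473) were higher on average, with overlap. Fcgr1 was lower without overlap (-0.86, SE 0.25, adjusted p = 0.0664). For Cd14 (-0.36), Cd68 (-0.025) and Csf1r (0.032) the groups overlapped. Fewer cells of a type and less RNA per cell cannot be told apart in sorted bulk samples.

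None of the 7 Irf genes passed the threshold, against 72 of all 754 genes (9.55%), of which 19 were higher (2.52%) and 53 lower (7.03%). At an unadjusted p under 0.05, limma passed 2 of the 7, Irf3 and Irf7, against 25.3% of all genes. The unadjusted test named in the methods passed Irf3 and Irf4, against 125 of all 754 genes, and neither after adjustment. The IRF5-NP values lay wholly above the PBS values for Irf3, Irf4 and Irf7, as for 17% of all genes, and wholly below them for Irf8, as for 20.4%. For Irf1, Irf2 and Irf5 the groups overlapped. The median log2 difference of the 7 genes was 0.36, beside -0.029 over all genes. This scale depends on the normalization, since shifting all samples to a common median over all genes raised every difference by 0.24.

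**Figure D1:**
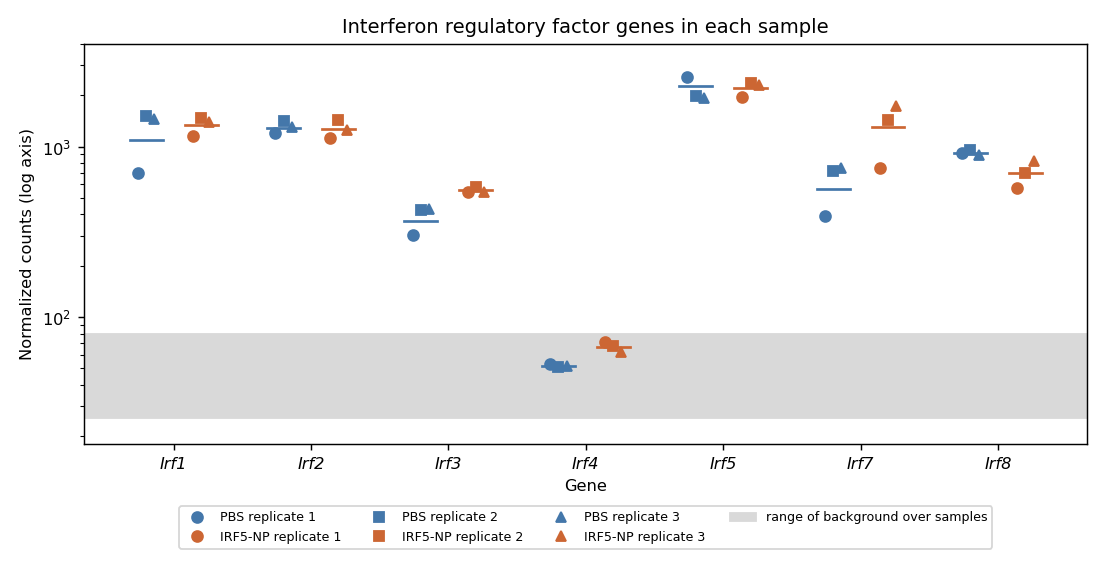
Normalized counts (log axis) of the 7 Irf genes in each of the 6 samples, with PBS in blue and IRF5-NP in orange, a symbol for each replicate number, a line at each group mean (PBS replicates 2 and 3 counted as 1 sample) and the range of the background in grey. Irf7 spans 391 to 747 in the PBS samples and 753 to 1723 in the IRF5-NP samples, and the Irf5 values of the groups overlap. Irf4 lies within the grey range, whose top is the background of IRF5-NP replicate 3. In every other sample Irf4 is above the background of that sample.

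The Irf5 probe read 2573, 1991 and 1929 normalized counts in PBS replicates 1, 2 and 3. It read 1960, 2358 and 2294 in IRF5-NP replicates 1, 2 and 3. The highest value of all was in a PBS sample, and the groups overlapped throughout. The PBS mean was 2266 ± 433 (SD, n = 2) and the IRF5-NP mean 2204 ± 214 (SD, n = 3). The log2 difference was -0.032 (SE 0.22, 95% interval -0.55 to 0.48, limma adjusted p = 0.947), a fold of 0.978 with an interval of 0.684 to 1.40. Its sign followed the scaling, with 0.21 at a common median and 0.33 after quantile normalization, and neither passed the threshold. The exact two-sided permutation test over the 5 samples gave p = 1, where the smallest p this design allows is 0.1. Depth was not limiting for this gene, since its values lay between 28.9 and 92.0 times the background. The delivered mRNA is codon-optimized and the probe sequence was not used here, so that whether the probe reads the delivered transcript is unknown. The value is therefore a level of what the probe binds and does not check the group labels. Ikbkb, the gene of IKKβ, which phosphorylates Irf5, has no row in the table.

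Within the PBS group, Irf5 was 0.762 times as high in replicates 2 and 3 as in replicate 1. The 5 genes whose log2 values correlated best with those of Irf5 over the 6 samples, among 482 genes above background in every sample, were Cytip (Pearson r = 0.989), Rin2 (0.985), Csf1r (0.980), Trem2 (0.972) and Thbd (0.956). Csf1r is the receptor for the macrophage growth factor M-CSF, and Trem2 is a lipid-sensing receptor of macrophages. Csf1r read 8996, 6071 and 6155 normalized counts with PBS and 6426, 8344 and 8120 with IRF5-NPs. Like Irf5, it was highest in PBS replicate 1 and overlapped between the groups (log2 difference 0.032, SE 0.28, adjusted p = 0.960). These coefficients describe 6 points, of which PBS replicates 2 and 3 count as 1 sample, and carry no test.

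Irf7, which amplifies type I interferon production and is itself induced by interferon, had the largest difference of the family. It read 391, 717 and 747 normalized counts in PBS replicates 1, 2 and 3, and 753, 1423 and 1723 in IRF5-NP replicates 1, 2 and 3. All IRF5-NP values were above all PBS values, but IRF5-NP replicate 1 lay next to PBS replicate 3. The counting intervals of these neighbours overlap, with 95% Poisson limits of 701 to 807 for IRF5-NP replicate 1 and 689 to 810 for PBS replicate 3. The means were 561 ± 241 (SD, n = 2) and 1299.7 ± 497 (SD, n = 3). The log2 difference was 1.20 (SE 0.40, 95% interval 0.26 to 2.13, unadjusted p = 0.0188, limma adjusted p = 0.102), a fold of 2.29 with an interval of 1.20 to 4.38. It did not pass the threshold, and without PBS replicate 1, the lowest sample, it was 0.74 (adjusted p = 0.519), whereas without IRF5-NP replicate 1 it was 1.55 (adjusted p = 0.0569). Within groups, the fold was 1.87 from PBS replicate 1 to replicates 2 and 3 and 2.09 from IRF5-NP replicate 1 to the mean of replicates 2 and 3. The exact two-sided permutation test gave p = 0.2.

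Irf3, the constitutively expressed factor activated below TLR3, TLR4 and the cytosolic sensors, read 303, 424 and 433 normalized counts with PBS. With IRF5-NPs it read 545, 578 and 543. The IRF5-NP samples lay close together and above all PBS samples. The log2 difference was 0.62 (SE 0.22, 95% interval 0.11 to 1.14, unadjusted p = 0.0243, limma adjusted p = 0.122), a fold of 1.54. With samples at a common median it was 0.86 and passed narrowly (adjusted p = 0.0494), where 10.3% of all genes passed. Without PBS replicate 1 it was 0.37. The exact two-sided permutation test gave p = 0.1, the smallest possible.

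Irf1 read 698, 1507 and 1452 normalized counts with PBS and 1159, 1479 and 1401 with IRF5-NPs. PBS replicate 1 stood below the other samples. PBS replicate 2 was the highest of all, and PBS replicate 3 lay among the IRF5-NP values. The log2 difference was 0.40 (SE 0.32, 95% interval -0.35 to 1.15, limma adjusted p = 0.531), and it turned to -0.14 without PBS replicate 1. Irf2 read 1209, 1406 and 1301 with PBS and 1129, 1423 and 1255 with IRF5-NPs. It varied least between groups, at -0.017 (SE 0.20, 95% interval -0.49 to 0.46, adjusted p = 0.968), a sign that turned to 0.22 at a common median and 0.26 after quantile normalization.

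Irf8 was the member with IRF5-NP values below all PBS values. It read 922, 950 and 890.0 normalized counts with PBS and 570.2, 700.03 and 829 with IRF5-NPs. The PBS values were close to each other and the IRF5-NP values spread. The log2 difference was -0.41 (SE 0.22, 95% interval -0.93 to 0.11, limma adjusted p = 0.313), and it did not pass the threshold. At a common median it was -0.17, after quantile normalization -0.22, and without IRF5-NP replicate 1 -0.27. Irf8 is also high in dendritic cells, and 5 of the 9 dendritic cell markers listed were measured, with a summed level of 263 to 352 in the PBS samples and 132 to 182 in the IRF5-NP samples. Of these 5, Itgax (CD11c) fell (log2 difference -1.88, SE 0.27, adjusted p = 0.00589), from 145, 204 and 192 to 40.9, 48.5 and 46.8. The last value was below the background of its sample, 79.4. The summed level includes Itgax and does not show a fall shared by the 5 markers. Xcr1, which marks cross-presenting dendritic cells, was below the background in every sample. Its IRF5-NP values lay above all PBS values (0.64, SE 0.39, adjusted p = 0.379). For Flt3, Clec9a and Batf3 the groups overlapped, and these genes were above the background in 3, 2 and 4 of the 6 samples. None of the 5 was at 0, and their part in the Irf8 values was not tested.

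Irf4 was near the limit of detection. It read 52.9, 50.7 and 51.3 normalized counts with PBS and 71.4, 67.3 and 62.4 with IRF5-NPs, without overlap. In IRF5-NP replicate 3 the value was 0.786 times the background and rested on 24 counts (95% Poisson interval 15.4 to 35.7), whereas in the other samples it lay between 1.40 and 2.62 times the background. The log2 difference was 0.36 (SE 0.26, 95% interval -0.25 to 0.97, limma adjusted p = 0.482), and it was 0.60 at a common median and 0.16 with the background subtracted. The exact two-sided permutation test gave p = 0.1, the smallest possible.

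**Figure D2:**
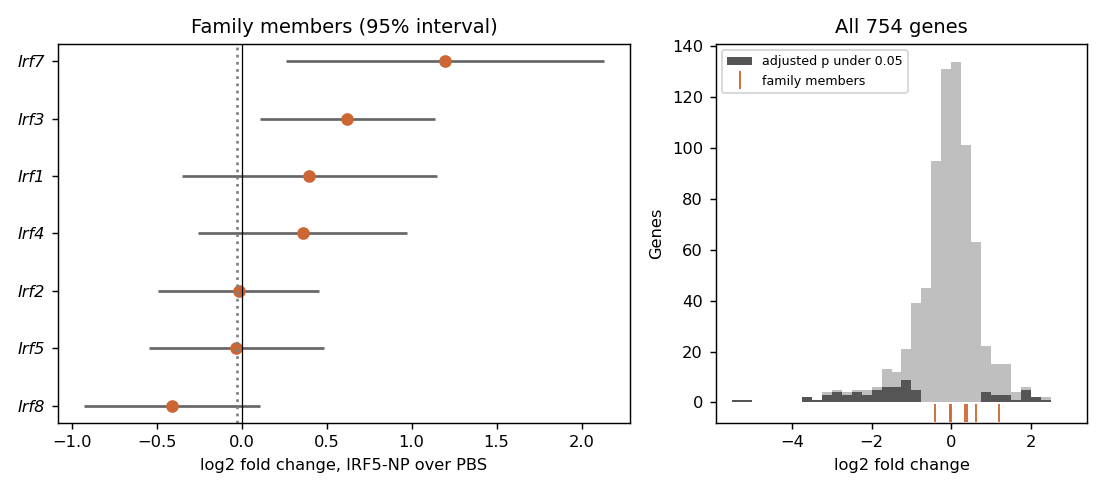
Left, log2 fold change of IRF5-NP over PBS for each Irf gene with its 95% interval from limma, a solid line at 0 and a dotted line at the median of all genes. Right, the distribution of the log2 fold changes of all 754 genes, with those past the adjusted threshold in dark grey and the 7 Irf genes as orange ticks. The intervals of Irf7 and Irf3 lie above 0 before adjustment, Irf8 is the lowest at -0.41, and the signs of Irf2 and Irf5 turn with the scaling between samples.

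The 4 measured genes of the 25 listed as induced by type I interferon were then set beside Irf7. Isg15, a ubiquitin-like protein, read 264, 1498 and 1612 normalized counts with PBS and 368, 286 and 273 with IRF5-NPs. Mx1, an antiviral GTPase, read 96.4, 490.4 and 471 with PBS and 121, 118 and 107 with IRF5-NPs. PBS replicates 2 and 3 stood far above the remaining samples, and PBS replicate 1 lay below the IRF5-NP samples for both genes. For Mx2, a paralog of Mx1, and Usp18, which removes Isg15 from proteins, the same PBS samples were high. Usp18 read 41.5, 258 and 254 with PBS and 112, 122 and 125 with IRF5-NPs. Unlike the others it had a positive log2 difference (0.21, SE 0.65, limma adjusted p = 0.892). From PBS replicate 1 to replicates 2 and 3, the fold was 5.88 for Isg15, 4.98 for Mx1, 3.33 for Mx2 and 6.17 for Usp18, beside 2.12 for Irf1 and 1.87 for Irf7.

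None of these 4 genes passed the threshold, and their median log2 difference was -0.84, beside -0.029 over all genes. The call rested on PBS replicate 1. Without it, Isg15 (-2.34, adjusted p = 0.00736), Mx1 (-2.05, adjusted p = 0.00855) and Mx2 (-1.65, adjusted p = 0.0349) passed as lower with IRF5-NPs, with the PBS arm down to 1 counted sample that is assumed to vary like the others. In IRF5-NP replicates 2 and 3, Irf7 was 2.09 times as high as in replicate 1, whereas Isg15 was 0.758 times as high. Isg15 and Irf7 thus differed in which samples were high, and the log2 ratio of Irf7 to Isg15 was 0.56, -1.06 and -1.11 in PBS replicates 1, 2 and 3 and 1.03, 2.31 and 2.65 in IRF5-NP replicates 1, 2 and 3. A ratio between probes has no absolute meaning, and only its differences between samples can be read. This pair was chosen after the values had been seen, and the ratio was not tested.

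**Figure D3:**
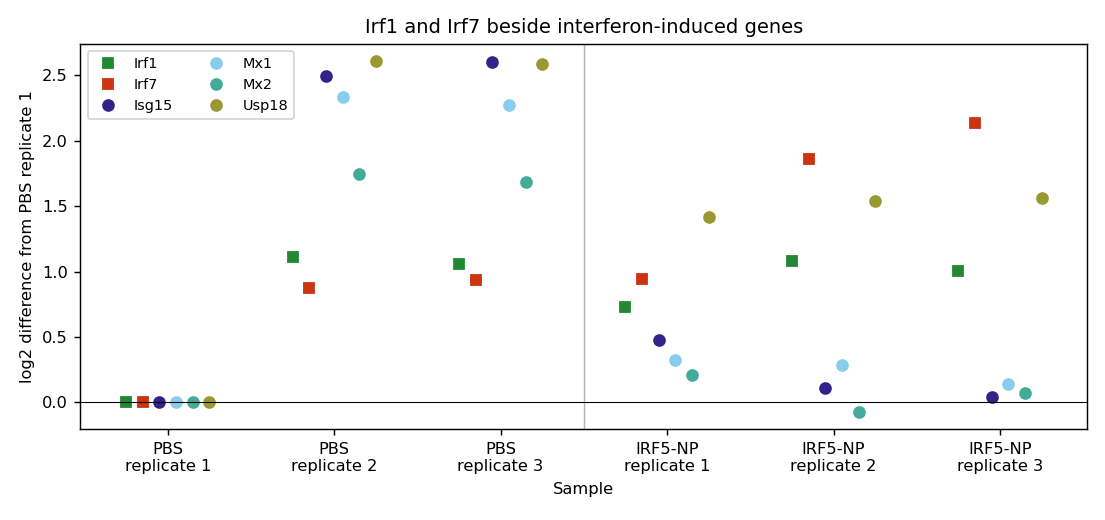
Difference of log2 values from PBS replicate 1 (y axis) in each sample for Irf1 and Irf7 (squares) and 4 interferon-induced genes (circles). In PBS replicates 2 and 3 the interferon-induced genes lie farther above PBS replicate 1 than Irf7 does. In the IRF5-NP samples Isg15, Mx1 and Mx2 lie near 0 while Irf7 is higher. Usp18 also lies above 0 there, farther than Irf7 in IRF5-NP replicate 1 and less far in replicates 2 and 3.

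Markers of resident peritoneal macrophages differed between the groups in the same direction as Irf7. Of 8 listed, 6 were measured, and all 6 were higher in every IRF5-NP sample than in every PBS sample, with 3 past the threshold (Timd4, Selp and Cxcl13). Over all genes, 17% were higher without overlap and 2.52% passed as higher. Selp went from 2.19 to 1.38 without PBS replicate 1 (adjusted p = 0.235) and did not pass without any single IRF5-NP sample either. Timd4 and Cxcl13 did not pass without PBS replicate 1 (2.14 and 1.99, with 1 counted PBS sample left). They did not pass without IRF5-NP replicate 3 either (adjusted p = 0.0966 for Cxcl13). The summed level of the 6 was 23856 to 50952 in the PBS samples and 79018 to 120889 in the IRF5-NP samples, and none was at 0. Gata6, the factor that defines resident peritoneal macrophages, read 649, 951 and 944 normalized counts with PBS and 1112, 1983 and 2001 with IRF5-NPs (log2 difference 1.06, SE 0.32, limma adjusted p = 0.0746). Its lowest and highest samples were those of Irf7, and IRF5-NP replicate 1 was again the lowest of its group. The part of these cells in the Irf values was not tested. Of 5 monocyte markers 3 were measured and none passed. All 6 neutrophil markers were measured, and Csf3r rose (0.88, adjusted p = 0.0459). The other neutrophil markers did not pass. S100a8 was lower without overlap (-1.51, SE 0.46, adjusted p = 0.0767). Ly6g was higher without overlap (0.51, adjusted p = 0.418) and above the background in 1 sample. For S100a9 (-2.65), Cxcr2 (-0.85) and Mpo (0.26) the groups overlapped, and Mpo was below the background in every sample. The summed level of the 6 neutrophil markers was 2108 to 6545 in the PBS samples and 1507 to 2458 in the IRF5-NP samples. The 1 measured B cell marker, Ms4a1, rose from 16.3 to 25.9 with PBS to 50.5 to 75.4 with IRF5-NPs (adjusted p = 0.0351), and was above the background in 2 of the 6 samples. The Ms4a1 call was lost without PBS replicate 1 or any single IRF5-NP sample (adjusted p up to 0.114), and the Csf3r call without PBS replicate 1 or IRF5-NP replicate 2 or 3 (adjusted p up to 0.201). Listed markers of T cells, natural killer cells and tumor or mesothelial cells have no row in the table.

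Upstream of the family, 9 of the 27 listed sensors, adaptors and kinases were measured. Of these 1 fell, none rose and 8 did not pass, with a median log2 difference of -0.47. Tlr9, the endosomal sensor of CpG DNA that signals to Irf5 and Irf7, read 231, 209 and 197 normalized counts with PBS and 66.6, 89.3 and 80.6 with IRF5-NPs. The groups lay far apart, with a log2 difference of -1.46 (SE 0.25, limma adjusted p = 0.0132), a call that was lost when PBS replicate 1 (-1.36, adjusted p = 0.0738) or IRF5-NP replicate 3 (-1.48, adjusted p = 0.0650) was left out. Tlr7, which senses single-stranded RNA, read 1075, 566 and 587 with PBS and 412, 621 and 582 with IRF5-NPs, with overlap (-0.57, SE 0.32, adjusted p = 0.325). Myd88, the adaptor that binds Irf5 below these receptors, read 397, 474 and 496 with PBS and 280, 331 and 343 with IRF5-NPs. Its groups did not overlap, and it did not pass (-0.47, SE 0.22, adjusted p = 0.225). Traf6, the ligase at the next step, read 846, 404 and 428 with PBS and 261, 300 and 320 with IRF5-NPs (-1.02, SE 0.31, adjusted p = 0.0811).

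Of 14 listed interferons, receptors, kinases and feedback inhibitors, 8 were measured, 1 fell and none rose (median log2 difference -0.56). The shares of all genes were 7.03% lower and 2.52% higher, with a median of -0.029. Socs3, an inhibitor of cytokine receptor signaling, fell from 2119, 1593 and 1585 normalized counts to 1106, 769 and 850, with a log2 difference of -1.03 (SE 0.24, limma adjusted p = 0.0380). At a common median it was -0.79 and did not pass (adjusted p = 0.0820), and leaving out PBS replicate 1 or IRF5-NP replicate 2 or 3 also lost the call (adjusted p = 0.165, 0.135 and 0.180). Ifnb1, the interferon-β gene driven by Irf3 and Irf7, read 71.6, 66.2 and 71.4 with PBS and 13.3, 21.0 and 39.0 with IRF5-NPs. All IRF5-NP values were below the background of their sample, and the log2 difference of -1.61 did not pass (SE 0.45, adjusted p = 0.0644). Ifng was below the background in every sample.

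Factors that bind DNA with or beside the family were represented by 4 of 12 listed genes, and none passed. Their median log2 difference was -0.40, beside -0.029 over all genes. Batf3, a partner of Irf8 in dendritic cells, read 63.3, 65.2 and 43.8 with PBS and 32.4, 32.0 and 52.0 with IRF5-NPs, with overlap (-0.61, SE 0.34, limma adjusted p = 0.325). Lyn, Stat2 and Spi1 have no row in the table.

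All 13 genes listed as textbook targets of Irf5, without regard to the direction in which it acts on them, were measured. Of these 3 fell, none rose and 10 did not pass, beside 7.03% lower and 2.52% higher over all genes. The median log2 difference of the 13 was -1.06, beside -0.029 over all genes. Since directions are pooled, the median of the list is no measure of Irf5 activity. Ccl4, a chemokine, fell from 539, 385 and 369 normalized counts to 54.3, 46.3 and 91.0, with a log2 difference of -2.86 (SE 0.34, limma adjusted p = 0.00220). Ccl3, a related chemokine, fell from 3669, 1488 and 1432 to 474, 341 and 322, with a log2 difference of -2.63 (SE 0.39, adjusted p = 0.00591), a call lost once IRF5-NP replicate 3 was omitted (adjusted p = 0.0650). The groups lay far apart for both chemokines. Tnf, the inflammatory cytokine, fell from 330, 268 and 253 to 104, 52.9 and 65.0, with a log2 difference of -2.03 (SE 0.33, adjusted p = 0.00932), a call lost when PBS replicate 1 (adjusted p = 0.0741) or IRF5-NP replicate 3 (adjusted p = 0.0650) was left out. Il6 read 32.2, 148 and 139 with PBS and 88.5, 259 and 242 with IRF5-NPs, with overlap (1.36, SE 0.68, adjusted p = 0.265). Il12a and Il12b, the subunits of interleukin-12, stayed below the background in all 6 samples. Il10, Nos2, Cxcl10 and Il23a were lower in every IRF5-NP sample than in every PBS sample without passing the threshold. Over all genes, 20.4% were lower without overlap. For Il10 and Il23a, all IRF5-NP values were below the background of their sample. The Tnf value of IRF5-NP replicate 3 was also below the background of that sample.

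Of 15 genes listed as induced by interferon-γ through Irf1 and Irf8, 9 were measured, 3 fell and none rose (median log2 difference -0.79). Among all genes, 7.03% passed as lower and 2.52% as higher, with a median of -0.029. Cxcl9, a T cell chemokine, fell from 381, 877 and 910.0 normalized counts to 60.9, 76.1 and 85.8, with a log2 difference of -2.97 (SE 0.37, limma adjusted p = 0.00293). Cd274, which encodes PD-L1 and carries binding sites for Irf1, fell from 2494, 2718 and 2660 to 505, 782 and 608, with a log2 difference of -2.06 (SE 0.24, adjusted p = 0.00193). For both genes the IRF5-NP values lay far below the PBS values, whereas the groups overlapped for Irf1. Tap1, a peptide transporter of antigen presentation, fell by 0.79 on the log2 scale (SE 0.20, adjusted p = 0.0459), and did not pass at a common median (-0.55, adjusted p = 0.115) or without PBS replicate 1 or any of the 3 IRF5-NP samples (adjusted p = 0.0638 to 0.205). Of 11 genes of alternative activation listed under Irf4, 9 were measured and 1 fell (median -0.70), beside 7.03% lower over all genes. Chil3, the chitinase-like protein Ym1, fell from 17089, 23631 and 23215 to 822, 469 and 390, with a log2 difference of -5.23 (SE 0.34, adjusted p = 0.000180). Mrc1, the mannose receptor, read 8936, 2145 and 2094 with PBS and 1667, 840.03 and 883 with IRF5-NPs, and did not pass (-2.02, SE 0.58, adjusted p = 0.0664).

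Ccl4, Cd274, Chil3 and Cxcl9 passed the threshold whichever of the 6 samples was omitted, as did the marker Itgax. With the background subtracted, Cxcl9 (adjusted p = 0.0583), Tap1 (0.0668), Ccl3 (0.108), Tlr9 (0.119), Socs3 (0.140) and Tnf (0.165) did not pass. None of these calls passed by the test named in the methods after adjustment, which passed 0 genes of the table, against 125 genes at an unadjusted p under 0.05. The lists were chosen with earlier results of these data known, and Cxcl10 stands in 2 of them.

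**Figure D4:**
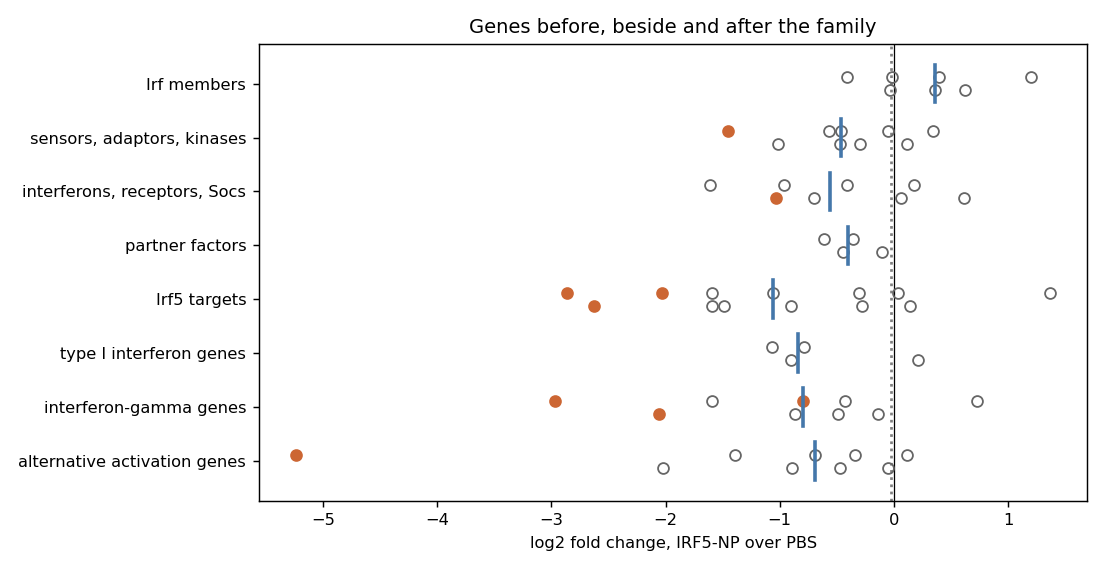
Log2 fold change of IRF5-NP over PBS for the Irf genes and for the measured genes of the 7 pathway lists (marker lists are not drawn), with 1 circle per gene, filled where the adjusted p was under 0.05, a blue bar at the median, a solid line at 0 and a dotted line at the median of all genes. The median of the Irf genes is 0.36, and the medians of the pathway lists lie between -1.06 and -0.40, with every filled circle below 0.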

How the data were processed

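Gene expression of the 6 samples was measured on the NanoString nCounter. The deposited values are a signal, the normalized count on a linear scale. For the cultured macrophages of the study, the authors normalized with nSolver to housekeeping genes (their geometric mean), and the same is not stated for the sorted cells. The table holds 768 probes (754 genes and 14 controls). Dividing a sample's gene values by 1 common factor gave whole counts (tolerance 0.01 normalized counts). These factors ran from 0.952 to 2.60 and gave the total counts and the Poisson intervals, which cover counting error only.

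Values were analysed as log2(value + 1), so that changes of low genes are understated, in R 4.3.3 with limma 3.58.1 (moderated test with a trend, two-sided). The script was tested on simulated data. The design had 6 samples, and PBS replicates 2 and 3 were averaged because a chi-square test found no difference beyond sampling noise. Named were all members, the 5 genes most alike Irf5, genes of the pathway lists past the threshold, and Ikbkb, Lyn, Stat2, Spi1, Myd88 and Batf3. Some genes that the rule covers are not reported here. Other genes were chosen after their values were seen. The members and lists were chosen with earlier results of these data known. The alternatives were 6 separate samples, a replicate block, the methods' test, 2 other scalings, a pseudocount of 20, a filter, background subtraction, a prior without trend, and each sample left out. Of the 754 symbols, 744 matched RefSeq, 9 matched a synonym and 1 did not match.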

Additional observations from a re-analysis of the deposited data

How the results depend on the processing

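Irf4 and Irf8 kept their direction and stayed short of the threshold in all 16 alternatives run, with Irf4 between 0.16 and 0.60 and Irf8 between -0.54 and -0.17. Irf5 turned to 0.034 with 6 separate samples and with the replicate block, to 0.21 at a common median and to 0.33 after quantile normalization, and lay between -0.083 and 0.16 with 1 sample left out. Irf1 turned to -0.14 without PBS replicate 1 and reached 0.50 without IRF5-NP replicate 1. Irf2 turned to 0.22 at a common median and to 0.26 after quantile normalization, and lay between -0.10 and 0.064 with 1 sample left out. Usp18 turned to -0.22 with 6 separate samples and with the block, and lay between -1.09 (without PBS replicate 1) and 0.25 with 1 sample left out. Of the Irf genes, 1 passed at a common median (Irf3) and 1 with the replicate block on 6 separate samples, which changes both choices together (Irf7, 1.05, SE 0.15, limma adjusted p = 0.00546), and 0 otherwise.

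Over all 754 genes, 121 passed with 6 separate samples (37 higher, 84 lower), 135 with the block on 6 separate samples (52 higher, 83 lower), 25 with background subtracted (4 higher, 21 lower), 41 with a prior without trend (8 higher, 33 lower), and 0 by the methods' test with either adjustment, against 72 in the report (19 higher, 53 lower). A common median gave 42 higher and 36 lower, and quantile normalization 35 higher and 40 lower. With 1 sample left out, 21 to 83 passed, with 2 to 24 higher and 19 to 59 lower. The replicate numbers were checked for pairing over 482 genes. Deviations of same-numbered samples from their group means correlated at 0.158, 0.178 and 0.0953, and PBS replicate 3 correlated best with IRF5-NP replicate 2 (0.144), while the other pairs of unequal number lay between -0.167 and 0.0937. Pairing was not established, since 1 same-numbered pair was under 0.1 and PBS replicates 2 and 3 count as 1 sample. The planned test for counts was not run, because a check of the low values in the IRF5-NP columns did not accept them as whole reads. The counts and Poisson intervals given for IRF5-NP samples rest on a match within 0.01 normalized counts. Causes of these shifts were not tested, other than fewer or more samples counted. Depth limits Irf4, Ifnb1, Il10, Il23a, Il12a, Il12b and other low genes, and IRF5-NP replicate 3 most of all. Genes that passed were also affected in that sample, where the background was 79.4. Tnf (65.0) and Itgax (46.8) were below it, and Tlr9 (80.6) and Cxcl9 (85.8) lay close above it.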

Other observations

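Genes whose log2 values closely followed those of 2 other Irf genes over the 6 samples, among 482 genes above background in every sample, were looked up after the values of Irf3 and Irf7 had been seen. Among the 5 most alike Irf7 were Pros1 (Pearson r = 0.998), P2rx1 (0.985), Gata6 (0.983) and Fabp4 (0.981), a fatty acid carrier of macrophages. Pros1, which encodes protein S, a ligand of Mertk, read 237, 470 and 459 normalized counts with PBS and 514, 971 and 1138 with IRF5-NPs.

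Among the 5 most alike Irf3 were Fasn, the fatty acid synthase (0.991), Fn1 (0.988), Tuba1a (0.984) and Sema4b (0.962). The gene most opposite to Irf3 was Nfkbia (-0.998), the NF-κB inhibitor IκBα, which read 3109, 1499 and 1448 normalized counts with PBS and 817, 709 and 780 with IRF5-NPs. All samples of each group shared a treatment, so that these coefficients describe 6 points in 2 groups and carry no test.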
